A study of Mus musculus with 8 samples.

Results

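Blood progenitors are sorted by antigens on their surface, and 9 genes encode those named here: Kit, Flt3, Il7r, Ly6a, Cd34, Fcgr3, Fcgr2b, Slamf1 and Cd48. They were taken by symbol from the platform annotation, and where a gene has several probe sets the brightest was to be used. Of the 9 genes 8 were measured, each by 1 probe set, among 19938 genes. Ly6a, which encodes Sca-1, has no probe set named in the annotation used here and is not analysed here. All 8 measured genes lay above the dimmest 30% of genes.

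RNA of flow-sorted mouse bone marrow was measured on 8 Affymetrix arrays, 1 for each preparation, and every preparation pooled 4 or 6 C57BL/6J animals. The groups were KLS and MEP cells of wild-type mice (WT) and of mice labelled ∆Hmga2, titled TG, in a series on overexpression of Hmga2, a DNA-binding chromatin protein, with 2 arrays in each of the 4 groups. The sources used here give neither the animals' age nor the promoter of the transgene nor the antibodies of each gate. Values are log2 levels after quantile normalization. A difference of 1 is a 2-fold difference in signal, and levels of different probe sets are not set against each other. In bulk samples, fewer cells of a type and less RNA per cell cannot be told apart.

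As background, KLS cells are the lineage-negative marrow cells that carry c-Kit and Sca-1, and they hold the stem cells and multipotent progenitors. MEP cells are megakaryocyte-erythroid progenitors. They are commonly gated as c-Kit-positive, Sca-1-negative cells with no CD34 and low Fc gamma receptor, and they lack FLT3 and the IL-7 receptor. Among KLS cells, FLT3 marks multipotent and lymphoid-primed progenitors, and CD150 (Slamf1) without CD48 marks stem cells. Because the sort uses c-Kit and Sca-1, and commonly CD34 and the Fc gamma receptors, the KLS against MEP differences of these genes check the gates and are not findings.

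The labels were compared with marker genes. The lists were chosen with earlier results of these data known, so this is not an independent check. Of 11 measured stem and multipotent progenitor markers, 4 were higher in KLS cells (limma, Benjamini-Hochberg adjusted p under 0.05 over all genes) and 0 lower, with a median log2 difference of 0.48. Hlf, a transcription factor of stem cells, was 2.24 ± 0.10 (SE) higher in KLS cells. All 13 measured erythroid markers were on the MEP side by value, with a median of -0.38, and 2 passed, Rhd and the transferrin receptor Tfrc. Of the 7 measured megakaryocyte markers 6 were on the KLS side by value, with a median of 0.27, and 0 passed. The largest was Pf4, the platelet factor of alpha granules, at 1.57 ± 0.36 (adjusted p = 0.0686). Over all genes the median difference was 0.013, and 1.2% were called higher in KLS cells and 0.396% lower. Hmga2, measured by 1 probe set, was at 6.85 and 7.12 on the WT KLS arrays and at 7.35 and 7.11 on the TG KLS arrays. It was at 6.70 and 6.74 on the WT MEP arrays and at 6.95 and 6.99 on the TG MEP arrays. The TG arrays overlapped the WT arrays in KLS cells and lay above them in MEP cells, with adjusted p = 1.00 in both. The sources used here do not say whether this probe set lies in the part that the transgene keeps.

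1 library stood apart and touches most results below. The WT MEP 1 array had 415 genes (2.08%) more than 2-fold above WT MEP 2, while 6 were more than 2-fold below. For all 8 measured antigen genes it was the highest of the 4 MEP arrays, against 25.8% of all genes. The tests of the antigen genes that use MEP arrays are therefore given with and without it, for some genes only within WT cells and for the interaction. The levels, the counts of genes whose arrays do not overlap and the nearest genes are given on all 8 arrays.

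KIT and FLT3 are related receptor tyrosine kinases that bind stem cell factor and FLT3 ligand. Kit was at 10.34 and 9.86 on the WT KLS arrays and at 10.18 and 10.07 on the TG KLS arrays. It was at 9.92 and 9.48 on the WT MEP arrays and at 9.50 and 9.63 on the TG MEP arrays. Kit was thus bright in all 4 groups, and the KLS and MEP arrays overlapped, through WT MEP 1 alone. The log2 difference, KLS minus MEP averaged over genotypes, was 0.48 ± 0.14 (SE, 95% interval 0.15 to 0.81), which did not pass limma's threshold (adjusted p = 0.149).

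Flt3 was at 9.28 and 8.99 on the WT KLS arrays and at 9.18 and 8.95 on the TG KLS arrays. It was at 7.76 and 6.38 on the WT MEP arrays and at 6.06 and 6.02 on the TG MEP arrays. Every KLS array lay above every MEP array, and the MEP arrays were spread more widely than the KLS arrays. The difference was 2.55 ± 0.26 (95% interval 1.96 to 3.13), or 5.84-fold, with an adjusted p of 0.00805. By size it ranked 12 among the 19938 genes.

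CD34 is a sialomucin of early progenitors. Cd34 was at 9.74 and 9.36 on the WT KLS arrays and at 10.15 and 9.14 on the TG KLS arrays. It was at 7.62 and 6.63 on the WT MEP arrays and at 5.90 and 6.37 on the TG MEP arrays. The KLS and MEP arrays did not overlap. The difference of 2.97 ± 0.27 (95% interval 2.35 to 3.59), or 7.84-fold, was the largest of the 8 genes and ranked 6 among all genes (adjusted p = 0.00805).

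Fcgr3 and Fcgr2b encode the activating receptor CD16 and the inhibitory receptor CD32, which bind immunoglobulin G. Their extracellular parts are closely similar, and the antibody commonly used for this gate binds both. Probe sequences were not used here, so signal shared between the 2 probe sets was not tested. Fcgr3 was at 7.54 and 7.16 on the WT KLS arrays and at 7.99 and 6.92 on the TG KLS arrays. It was at 6.61 and 5.79 on the WT MEP arrays and at 5.06 and 5.57 on the TG MEP arrays. The KLS and MEP arrays did not overlap, and the difference of 1.65 ± 0.27 passed (95% interval 1.04 to 2.25, adjusted p = 0.0335). Fcgr2b lay between 6.91 and 7.42 on the KLS arrays and between 5.87 and 6.90 on the MEP arrays. The arrays again did not overlap, by a margin of less than 0.01. Its difference, 0.82 ± 0.19 (95% interval 0.38 to 1.26), did not pass (adjusted p = 0.0781).

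CD150 (Slamf1) and CD48 are members of the SLAM family of immunoglobulin-like receptors. Cd48 was at 9.19 and 9.35 on the WT KLS arrays and at 9.58 and 9.21 on the TG KLS arrays. It was at 9.01 and 7.77 on the WT MEP arrays and at 7.53 and 7.89 on the TG MEP arrays. WT MEP 1 was close to the lowest KLS array without reaching it. The difference of 1.28 ± 0.24 passed (95% interval 0.73 to 1.84, adjusted p = 0.0449). Slamf1 was between 5.50 and 6.37 on the KLS arrays and between 5.28 and 6.45 on the MEP arrays. The ranges overlapped, the highest value being that of WT MEP 1, and the difference of 0.31 ± 0.26 did not pass (95% interval -0.29 to 0.90, adjusted p = 0.726).

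IL7R is the receptor chain for interleukin 7, which drives early lymphocyte growth. Il7r was at 8.02 and 7.71 on the WT KLS arrays and at 7.64 and 7.60 on the TG KLS arrays. It was at 9.96 and 6.82 on the WT MEP arrays, and at 6.71 on both TG MEP arrays. WT MEP 1 was thus 3.14 above WT MEP 2, or 8.82-fold, and above every KLS array, while the other 3 MEP arrays lay below every KLS array. Il7r ranked 2 of 19938 genes by the difference between the WT MEP arrays. The KLS minus MEP difference was 0.19 ± 0.54 (95% interval -1.03 to 1.42, adjusted p = 0.945).

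**Figure D1:**
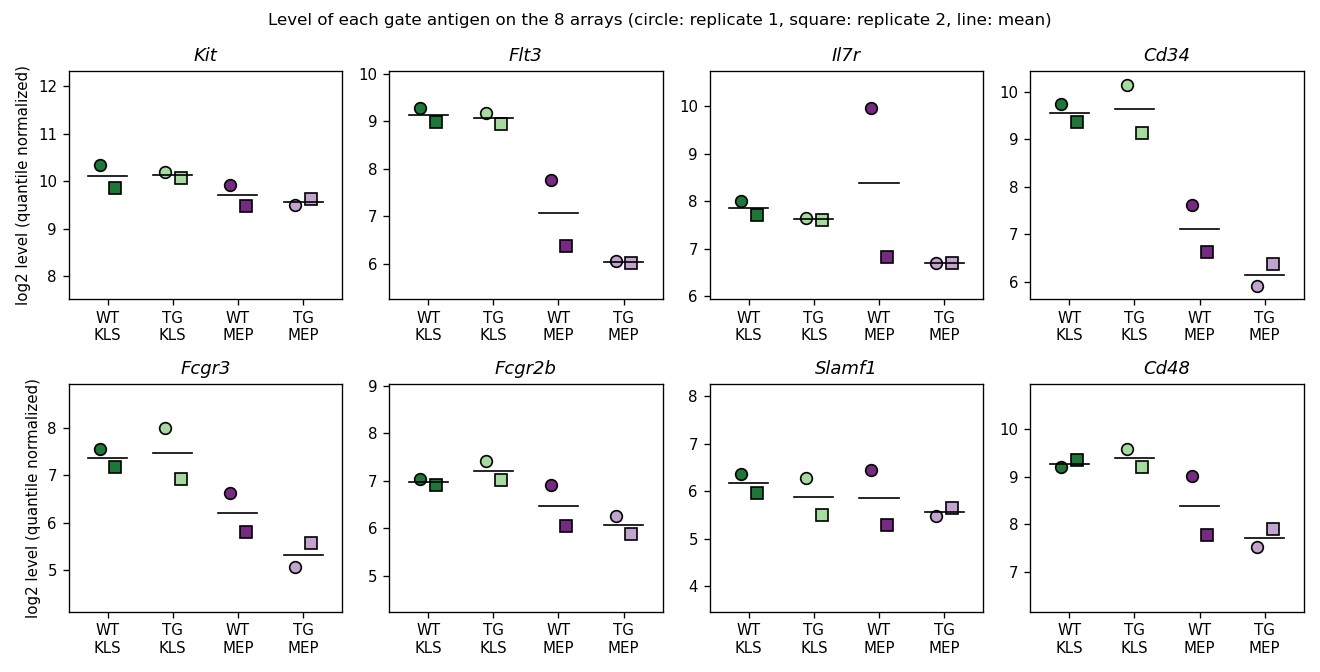
Log2 level of the 8 measured gate antigens on each of the 8 arrays, by group. Circles are replicate 1, squares are replicate 2 and lines are group means. Each panel spans the same range in log2 units. Flt3, Cd34, Fcgr3, Fcgr2b and Cd48 have every KLS array above every MEP array, and Il7r on WT MEP 1, at 9.96, lies above all other arrays.

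In all, 4 of the 8 genes (Cd34, Flt3, Fcgr3 and Cd48) were higher in KLS cells and 0 were lower, where 1.6% of all genes were called, 1.2% higher and 0.396% lower. The arrays of 5 of the 8 did not overlap, each with KLS higher, against 9.04% of all genes in either direction and 4.41% with KLS higher. The median difference over the 8 genes was 1.05. Markers of myeloid progenitors moved with these genes: 6 of 10 measured granulocyte-monocyte progenitor markers were higher in KLS cells, and their mean level was between 8.15 and 9.02 on the KLS arrays and between 6.36 and 7.11 on the MEP arrays. Of the mature neutrophil and monocyte markers 2 of 14 were higher, of the mast cell and basophil markers 3 of 9, of the T and NK markers 1 of 10, of the stromal and endothelial markers 2 of 10 and of the B-lineage and megakaryocyte markers 0 of 9 and 0 of 7, with 0 lower in each. Without WT MEP 1, 3.7% of all genes were called in either direction. In the same order from the granulocyte-monocyte progenitor list, 7, 6, 3, 1, 2, 5 and 1 were then higher and 0 lower. The part of these cells in the antigen differences was not tested. In 7 of the 8 fits that leave out 1 array Cd34 and Flt3 passed, the exception being the fit without TG MEP 1 (adjusted p = 0.0629 for both). Fcgr3 passed in 2 of the 8 fits, without TG KLS 2 and without WT MEP 1, with adjusted p up to 0.134 in the others. Cd48 passed in 2, without WT MEP 1 and without WT MEP 2, with adjusted p up to 0.167 in the others, and it also missed the threshold as deposited (0.0635), with median centring (0.0939) and with every probe set tested singly (0.0599).

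Without WT MEP 1, 6 of the 8 genes were higher in KLS cells, where 3.7% of all genes were called in either direction. Il7r was then 0.98 ± 0.12 higher (adjusted p = 0.00666) and Fcgr2b 1.03 ± 0.15 higher (0.0139). Cd34 was at 3.22 ± 0.26, Flt3 at 2.89 ± 0.13, Fcgr3 at 1.85 ± 0.27 and Cd48 at 1.59 ± 0.15. Kit, at 0.59 ± 0.14 (adjusted p = 0.0780), and Slamf1, at 0.60 ± 0.21 (0.200), did not pass. Without WT MEP 2 the Il7r difference took the other sign, at -0.59 ± 0.12 (adjusted p = 0.102), and 3 of the 8 genes passed (Flt3, Cd34 and Cd48), where 0.517% of all genes were called.

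Il7r and Fcgr2b were not called over both genotypes on all 8 arrays. The sequence before the start is shown for the 4 genes called higher in KLS cells on all 8 arrays and for Il7r, but not for Fcgr2b. These are the 250 bases before the annotated start, from RefSeq in the GRCm38.p6 build, and all 8 measured genes had an entry. They lie at chr1:194938571-194938820 on the plus strand for Cd34, chr5:147400490-147400739 on the minus strand for Flt3 and chr1:171059404-171059653 on the minus strand for Fcgr3. They lie at chr1:171681742-171681991 on the plus strand for Cd48 and chr15:9529877-9530126 on the minus strand for Il7r. Capitals mark a match, on either strand, to any of 6 motifs. For factors of the GATA family these were the letters AGATAA and, as another form, TGATAA. For the ETS family they were GAGGAAG, for the RUNX family TGTGGT and for the box bound by the general machinery TATAAA. The EBF motif is given by its name.
Cd34: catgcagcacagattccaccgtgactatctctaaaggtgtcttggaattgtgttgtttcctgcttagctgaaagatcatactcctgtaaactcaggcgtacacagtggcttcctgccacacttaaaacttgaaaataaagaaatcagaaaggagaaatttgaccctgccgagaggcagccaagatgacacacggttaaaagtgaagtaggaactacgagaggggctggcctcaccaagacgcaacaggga
Flt3: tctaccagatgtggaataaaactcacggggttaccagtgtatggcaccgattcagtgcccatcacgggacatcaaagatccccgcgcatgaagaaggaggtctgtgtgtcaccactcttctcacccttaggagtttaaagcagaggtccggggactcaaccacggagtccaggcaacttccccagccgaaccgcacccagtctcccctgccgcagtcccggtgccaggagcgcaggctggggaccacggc
Fcgr3: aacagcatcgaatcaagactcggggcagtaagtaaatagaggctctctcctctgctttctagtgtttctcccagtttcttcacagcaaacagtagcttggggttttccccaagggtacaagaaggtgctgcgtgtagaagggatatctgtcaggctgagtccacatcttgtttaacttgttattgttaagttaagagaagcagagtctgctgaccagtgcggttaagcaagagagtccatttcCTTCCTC
Cd48: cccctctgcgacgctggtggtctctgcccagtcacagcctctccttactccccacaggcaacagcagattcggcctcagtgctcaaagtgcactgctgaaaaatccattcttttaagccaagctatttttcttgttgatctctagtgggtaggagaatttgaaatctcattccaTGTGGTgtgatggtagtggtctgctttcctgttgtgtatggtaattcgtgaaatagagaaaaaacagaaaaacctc
Il7r: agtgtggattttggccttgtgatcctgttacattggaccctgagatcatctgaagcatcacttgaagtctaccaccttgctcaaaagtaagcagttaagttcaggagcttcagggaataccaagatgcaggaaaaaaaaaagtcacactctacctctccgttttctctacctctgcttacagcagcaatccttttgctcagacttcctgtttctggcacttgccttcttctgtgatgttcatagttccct
Of these letters, Fcgr3 held GAGGAAG, read on the opposite strand and ending next to the start, and Cd48 held TGTGGT. The first occurs in 10.4% and the second in 14.2% of 27025 promoters of the same length. Cd34, Flt3 and Il7r held none of the searched letters in this window. Of the other 3 genes, Kit held GAGGAAG, Slamf1 held TGATAA, which 8.16% of promoters hold, and Fcgr2b held none. The other searched letters occur in 10.3% (AGATAA), 13.0% (TATAAA) and 0.788% (the EBF motif) of promoters. The members also share a chromosome: 5 of the 8 lie on chromosome 1, where 1 protein-coding entry, Fcgr4, lies between Fcgr2b and Fcgr3.

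Within each genotype the KLS and MEP cells were compared with 2 arrays a side. In TG cells Cd34 was 3.51 ± 0.39 higher in KLS cells and Flt3 3.02 ± 0.36 higher (adjusted p = 0.0318 for both), and these 2 of the 8 genes passed, where 0.135% of all genes were higher. Both calls were lost with median centring (adjusted p = 0.0660), with every probe set tested singly (0.0557) and without TG KLS 1, TG MEP 1 or TG MEP 2 (up to 0.361), and Flt3 also without TG KLS 2 (0.0680). The other 6 genes had differences from 0.31 for Slamf1 to 2.14 for Fcgr3. Without either WT MEP array, which also narrows the shared estimate of the spread, 6 of the 8 passed in TG cells, where 1.29% of all genes did.

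In WT cells 0 of the 8 genes passed limma's threshold, where 0.00502% of all genes did, and the unadjusted p was under 0.05 for 4 of the 8 and for 1774 of the 19938 genes, 833 of which were higher in KLS. The arrays of 5 of the 8 genes did not overlap in WT cells, each with KLS higher, against 35.9% of all genes in either direction and 19.9% with KLS higher. In TG cells this held for 7 of the 8, all but Slamf1 and again with KLS higher, against 42% and 21.3%. Cd34 was at 2.43 ± 0.39 (adjusted p = 0.137) and Flt3 at 2.07 ± 0.36 (0.164). Il7r was at -0.53 ± 0.76 (95% interval -2.26 to 1.20). Without WT MEP 1, Cd34 was at 2.93 ± 0.40 (adjusted p = 0.0406) and Flt3 at 2.75 ± 0.20 (0.00472), and both passed, where 0.296% of all genes were called. Il7r was then at 1.04 ± 0.18 (adjusted p = 0.0864), whereas without WT MEP 2 it was at -2.10 ± 0.18 (0.0215) and was the 1 gene of the 8 to pass, where 0.0251% of all genes did. A lone array is assumed in these fits to vary like the other groups.

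The order of the group means was compared within each gene. For Cd34, Fcgr3, Fcgr2b, Cd48 and Kit it ran from TG KLS over WT KLS and WT MEP to TG MEP, and for Flt3 from WT KLS over TG KLS and WT MEP to TG MEP. The 2 KLS groups overlapped for each of these 6 genes. The 2 MEP groups overlapped for Kit, Fcgr2b and Cd48 and did not overlap for Flt3, Cd34 and Fcgr3. For Il7r the order was WT MEP, WT KLS, TG KLS and TG MEP, with WT MEP first through WT MEP 1. For Slamf1 the order was WT KLS, TG KLS, WT MEP and TG MEP, and neighbouring groups overlapped.

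**Figure D2:**
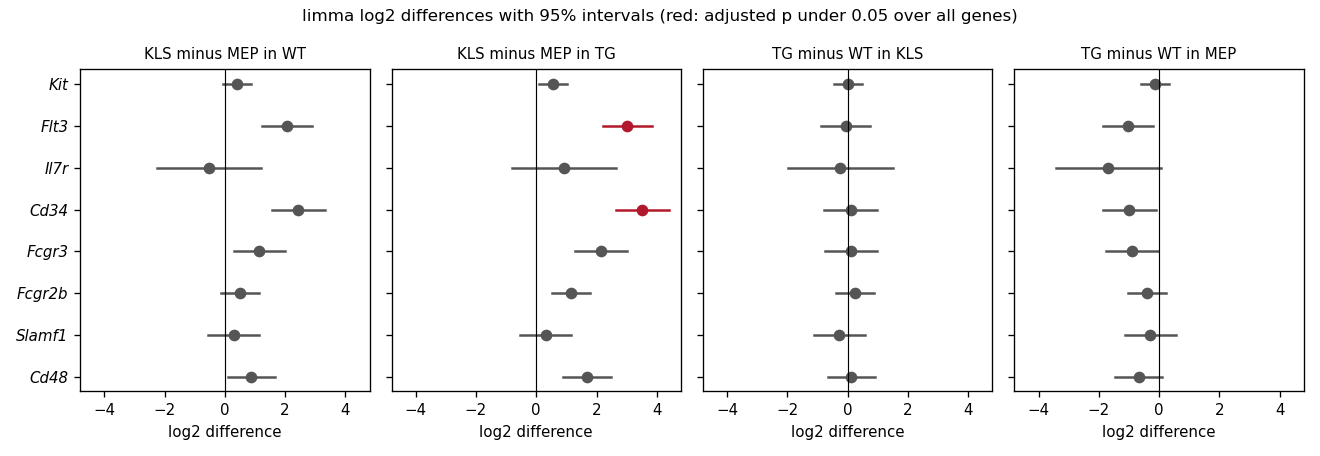
Log2 differences of the 8 genes with 95% intervals from limma, for KLS minus MEP in WT and in TG cells and for TG minus WT in KLS and in MEP cells. Red marks an adjusted p under 0.05 over all genes, which Cd34 and Flt3 reach in TG cells alone, and in KLS cells every genotype interval covers 0.

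The genotype comparison asks whether the antigens that define the gates differ in level between ∆Hmga2 and wild-type cells of the same gate. In KLS cells none of the 8 genes passed, and 0% of all genes were called (0 of the 8 genes and 500 of all genes at an unadjusted p under 0.05). The differences, TG minus WT, ran from -0.28 ± 0.37 for Slamf1 to 0.24 ± 0.27 for Fcgr2b, with a median of 0.060. Kit was at 0.024 ± 0.20 (95% interval -0.44 to 0.49), Cd34 at 0.095 ± 0.39 (-0.78 to 0.97), Flt3 at -0.070 ± 0.36 (-0.89 to 0.75) and Cd48 at 0.12 ± 0.35 (-0.66 to 0.91). The intervals leave room for a 1.96-fold higher level of Cd34 in TG KLS cells, so these values do not show that the levels were alike. The widest interval was that of Il7r, from -1.97 to 1.49. Il7r was the 1 gene of 8 whose TG and WT KLS arrays did not overlap, with TG lower by value at -0.24 ± 0.76 (-0.24 ± 0.15 without WT MEP 1), where 29% of all genes did not overlap in either direction and 17.2% had TG lower. The B-lineage markers were all 9 lower in TG KLS cells by value too, with a median of -0.38, and 0 passed. Other lists also leaned this way: 10 of 10 Fc receptor and Fc signalling genes were lower (median -0.22). Of the mature neutrophil and monocyte markers 11 of 14 were lower (-0.19), while 7 of 10 granulocyte-monocyte progenitor markers were higher (0.11). Without WT MEP 1 the KLS differences of the 8 genes kept their values, and again none passed.

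Among the KLS arrays, TG KLS 1 and TG KLS 2 lay far apart for 2 genes. Cd34 differed by 1.01 and Fcgr3 by 1.07 between them, with TG KLS 1 higher, while 0.431% of all genes were more than 2-fold higher on TG KLS 1. The granulocyte-monocyte progenitor markers, 10 genes measured, averaged 9.02 on TG KLS 1 and 8.20 on TG KLS 2, and 8.91 and 8.15 on the WT KLS arrays. Their part in the spread of Cd34 and Fcgr3 was not tested.

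In MEP cells all 8 genes were lower in TG by value, with a median of -0.79 where that of all genes was -0.0078. None passed limma's threshold (adjusted p = 1.00 for each), as 0% of all genes did, and 3 had an unadjusted p under 0.05 (Flt3, Cd34 and Fcgr3), as had 739 of the 19938 genes, 492 of them lower in TG. Flt3 was at -1.03 ± 0.36 (95% interval -1.85 to -0.21), Cd34 at -0.99 ± 0.39 (-1.86 to -0.11), Fcgr3 at -0.89 ± 0.38 (-1.75 to -0.035) and Il7r at -1.68 ± 0.76 (-3.41 to 0.050). Cd48 was at -0.68 ± 0.35, Fcgr2b at -0.41 ± 0.27, Slamf1 at -0.29 ± 0.37 and Kit at -0.13 ± 0.20. For Flt3, Il7r, Cd34 and Fcgr3 both WT MEP arrays lay above both TG MEP arrays, 4 of 8 genes, where 30.2% of all genes did not overlap in either direction and 17.2% had TG lower.

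Markers of other cell types had lower values in the same comparison. All 14 mature neutrophil and monocyte markers were lower in TG MEP cells by value, with a median of -1.18, as were all 9 B-lineage markers (-1.18) and all 10 granulocyte-monocyte progenitor markers (-0.42), and 0 of them passed. On the other 7 arrays these were 14 of 14 (-0.75), 7 of 9 (-0.011) and 9 of 10 (-0.30), where the median of all genes was -0.044. The part of these cells in the antigen values was not tested.

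The genotype values of the antigens in MEP cells were also smaller in size or of the other sign without WT MEP 1. Then Il7r was at -0.11 ± 0.18, Flt3 at -0.34 ± 0.20, Cd34 at -0.49 ± 0.40, Fcgr3 at -0.48 ± 0.42 and Cd48 at -0.061 ± 0.23. Kit (0.088), Fcgr2b (0.014) and Slamf1 (0.29) were then higher in TG by value, and none of the 8 passed. With WT MEP 2 left out, so that WT MEP 1 alone stood for its group, Il7r was at -3.25 ± 0.18 (adjusted p = 0.00240) and Flt3 at -1.72 ± 0.20 (0.0160). These 2 of 8 genes passed, where 0.722% of all genes were called.

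**Figure D3:**
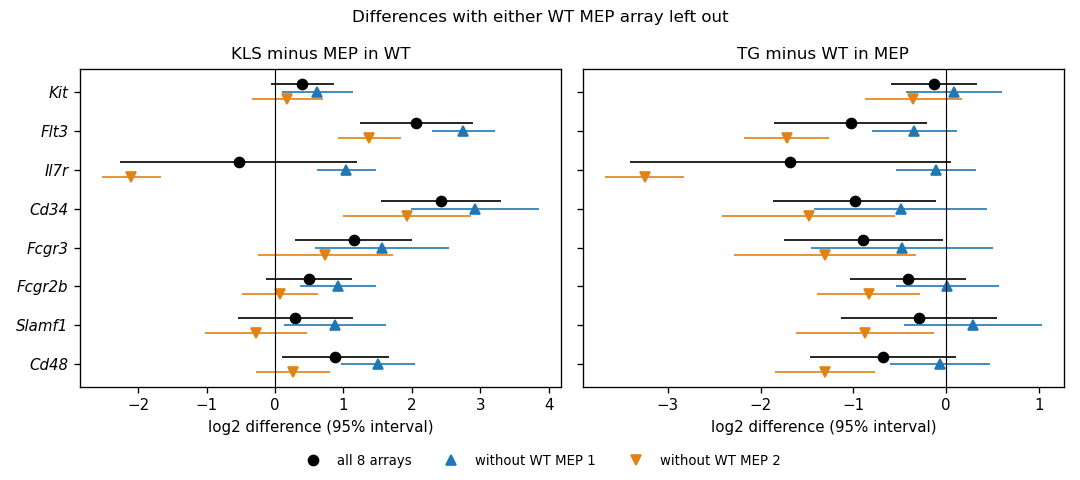
Log2 differences of the 8 genes with 95% intervals, for KLS minus MEP in WT cells and TG minus WT in MEP cells, on all 8 arrays and without either WT MEP array. Il7r moves from -2.10 to 1.04 in the first comparison and from -3.25 to -0.11 in the second, depending on which array is left out.

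The difference between the genotype changes of the 2 cell types, TG minus WT in KLS cells less that in MEP cells, was tested as an interaction. It passed for 0 of the 8 genes and for 0% of all genes (0 of the 8 and 453 of all genes at an unadjusted p under 0.05). Il7r was at 1.44 ± 1.08, Cd34 at 1.08 ± 0.55 (-0.16 to 2.32), Fcgr3 at 1.00 ± 0.53 and Flt3 at 0.96 ± 0.51. Without WT MEP 1 they were at -0.13, 0.59, 0.58 and 0.27. Without WT MEP 2, where WT MEP 1 alone stood for its group, Il7r was at 3.01. The comparisons within WT, within MEP cells and of the interaction share the WT MEP arrays.

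Other cell types were followed by marker lists on the same arrays. All 9 measured B-lineage markers were highest among the MEP arrays on WT MEP 1, against 25.8% of all genes. Their mean level was 9.36 on that array and 7.14 on WT MEP 2. It was 7.01 and 7.12 on the arrays of TG MEP cells and between 7.70 and 8.24 on those of KLS cells. Ebf1, a transcription factor that commits cells to the B lineage, was at 10.12 on WT MEP 1 and at 6.91 on WT MEP 2, and Igll1, of the precursor B cell receptor, at 9.81 and 7.47. Pax5, a B-lineage transcription factor, was at 8.64 and 6.72, and Cd79b, a chain of the B cell receptor, at 9.84 and 7.15. All 14 mature neutrophil and monocyte markers were also highest on WT MEP 1, with a mean of 9.54 against 8.86 on WT MEP 2. Their means on the TG MEP arrays were 8.13 and 8.22, below both WT MEP arrays. All 10 granulocyte-monocyte progenitor markers were highest there as well, with means of 7.11 and 6.70 on the WT MEP arrays and of 6.36 and 6.54 on the TG MEP arrays. Of the T and NK markers 6 of 10 were, with means of 6.11 and 5.78. Of the stem and multipotent progenitor markers 6 of 11 were highest on WT MEP 1. Their means were 6.94 and 6.54 on the WT MEP arrays and 6.64 and 6.67 on the TG MEP arrays. The erythroid markers averaged 9.79 on WT MEP 1 and 9.85 on WT MEP 2. The part of these cell types in the antigen levels of WT MEP 1 was not tested.

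**Figure D4:**
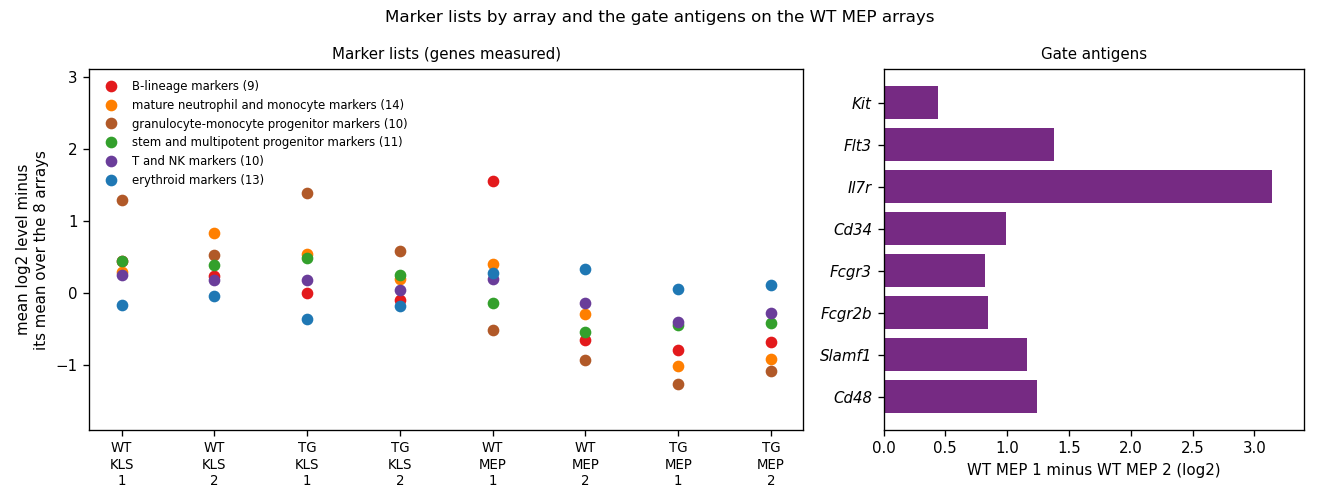
Left, mean log2 level of 6 marker lists on each array, as the difference from the list's mean over the 8 arrays. Right, WT MEP 1 minus WT MEP 2 for the 8 antigen genes, on the log2 scale. The B-lineage list is highest on WT MEP 1, and Il7r has the longest bar at 3.14.

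Genes with a similar pattern were found for the 6 antigens whose group means spanned at least 1, by the mean absolute difference of gene-centred log2 levels over the 8 arrays. This describes the same arrays, and KLS and MEP arrays form separate groups in it for these antigens other than Il7r. The nearest to Il7r were Ebf1 (0.12), Vpreb3 (0.15) and Atp1b1 (0.17). With WT MEP 1 included, their KLS minus MEP differences were small, at 0.23, 0.092 and 0.14, as was that of Il7r at 0.19. All were far higher on WT MEP 1 than on WT MEP 2, with Ebf1 at 10.12 and 6.91 and Il7r at 9.96 and 6.82. On the MEP arrays other than WT MEP 1, Il7r, Ebf1 and Vpreb3 lay below every KLS array. Ebf1 was there at 6.91, 6.84 and 7.01, and between 7.63 and 8.52 on the KLS arrays. Whether they stay nearest to Il7r without WT MEP 1 was not tested. For Flt3 they were Clec12a (0.11), Fxyd5 (0.14) and Emb (0.15), and for Cd34 they were Emb (0.14), Gria3 (0.23) and Clec12a (0.25). Flt3 and Cd34 were at 0.25 from each other, and Flt3 and Il7r at 1.18. The nearest to Fcgr3 were Vav3 (0.11), Adgrg3 (0.14) and Bex6 (0.14), to Fcgr2b Skap2, Epsti1 and Cflar (0.097 to 0.10), and to Cd48 Myo5a, Clec4a2 and Coro1a (0.10 to 0.11). Cd48 was nearer to Fcgr2b (0.26) and Fcgr3 (0.28) than to Slamf1 (0.49).

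Related genes were taken from further lists, which share genes with the marker lists above. Of the called genes below, Cd27, Emcn, Csf3r and Tfrc were already counted there. Of 26 other antigens used in progenitor gates, 4 were called higher on the KLS side and 1 on the MEP side, with a median of 0.28. Over all genes 1.2% were called higher and 0.396% lower. Cd27, a receptor of the tumour necrosis factor family, was 1.83 ± 0.25 higher in KLS cells (adjusted p = 0.0162), the endothelial sialomucin Emcn 1.24 ± 0.13 (0.00837), the G-CSF receptor Csf3r 1.16 ± 0.16 (0.0160) and Cd33, a lectin of myeloid cells, 0.81 ± 0.13 (0.0298). The transferrin receptor Tfrc, the antigen CD71 of red cell precursors, was lower at -0.56 ± 0.10 (0.0407). With 1 array left out, Cd33 and Tfrc passed without WT MEP 1 alone, with adjusted p up to 0.127 and 0.150, and Cd27 and Csf3r missed the threshold without TG KLS 1, TG MEP 1 or TG MEP 2 (up to 0.0804 and 0.0874). Emcn missed it without TG MEP 1 or TG MEP 2 (up to 0.0629). With median centring, Cd33 (0.0659) and Tfrc (0.0643) did not pass.

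Where 1.6% of all genes passed, 1 of 10 Fc receptor and Fc signalling genes did. This was Fcer1g, the signalling chain that carries CD16 to the surface. Its KLS level was 8.29 ± 0.29 and its MEP level 6.76 ± 0.71 (SD over 4 arrays), a difference of 1.52 ± 0.22 (adjusted p = 0.0206), and it missed the threshold without WT KLS 2, TG KLS 1, TG MEP 1 or TG MEP 2 (up to 0.0945). Of 10 SLAM family genes and partners 0 passed (Ly9 had the smallest p, at 1.12 ± 0.23, adjusted p = 0.0501). Of these 10, 8 were highest on WT MEP 1 among the MEP arrays, against 25.8% of all genes. Slamf7, a SLAM receptor of lymphocytes, was among them, at 8.77 on WT MEP 1 and 5.83 on WT MEP 2. Of 22 ligands, signalling genes and related receptors of KIT, FLT3 and IL7R 0 passed, with a median of 0.21. The smallest p was that of Csf1r, the receptor of macrophage growth factor, at 0.75 (adjusted p = 0.160). Of 9 genes of the Ly6 family, to which Ly6a belongs, 0 passed, with a median of 0.021 and the smallest p for Ly6g, an antigen of neutrophils, at 1.16 (adjusted p = 0.171). Of 10 antigens of the lineage depletion 0 passed, with a median of 0.17 and the smallest p for Itgam, which encodes CD11b of myeloid cells, at 0.91 ± 0.19 (adjusted p = 0.0506). With WT MEP 1 left out, the other gate antigens had 6 higher and 1 lower. The Fc receptor genes then had 4 higher, the SLAM genes 3, the lineage antigens 2 and the other lists 0. Over all genes 3.7% were called in either direction without that array, against 1.6% on all 8 arrays. In the genotype comparison of either cell type, with and without WT MEP 1, 0 genes of these lists passed. In MEP cells the genes with the smallest p in their lists were Cd33 at -0.52, Itgam at -0.98, Ly9 at -0.86, Fcer1g at -0.99, Ly6g6d at 0.38 and Stat5b at -0.31, and in KLS cells Cd33 at -0.39, Ly6g at -1.15, Sh2d1a at 0.47, Fcer2a at -0.43 and Pdgfra at -0.34, all as TG minus WT. With WT MEP 1 left out the MEP values were -0.28 for Cd33, -0.55 for Itgam, -0.38 for Ly9, -0.58 for Fcer1g, 0.32 for Ly6g6d and -0.33 for Stat5b.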

How the data were processed

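The deposited values are log2 levels per probe set, 35556 on each of 8 arrays. The log2 scale was read from the values, which run from 1.71 to 14.0. The submitters' processing notes name Affymetrix Expression Console. For its version, the summarization and the normalization, the sources used here give nothing. Array medians spanned 0.106. Quantile normalization was applied, as in earlier work on these data. Probe sets with 1 symbol (21789) were used, and the brightest of each gene left 19938 genes. RefSeq tables of GRCm38.p6 gave names and promoter sequence.

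The tests are those of limma 3.58.1 (R 4.3.3; lmFit, contrasts.fit, eBayes). The fit took the 8 arrays together and gave every group its own mean, which left 4 residual degrees of freedom beside 4.82 prior ones. Two-sided p-values were Benjamini-Hochberg adjusted across the 19938 genes, and a gene was called where the result was under 0.05. Errors are limma's SE unless SD is named. The number of arrays limits the precision. On simulated data, 4-fold changes were recovered for 97.6% of changed genes between cell types and 92% by genotype in KLS cells. The simulated noise was drawn independently for each gene and array, without shifts shared by many genes such as those of WT MEP 1. These rates are therefore not the power on the real arrays. In WT cells Cd34 was 5.39-fold and Flt3 4.19-fold higher in KLS cells, and neither was called.

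All members are named. In each list of related genes up to 4 called genes with the largest change are named, or the gene with the smallest p, and Tfrc besides. That rule was not applied to the marker lists, whose called genes are not all named. For each member whose group means spanned at least 1, the 3 nearest genes are named. Marker genes were described by value, and Pax5, Cd79b, Igll1, Pf4, Slamf7 and Hlf were chosen after their values were seen. Members and lists were chosen with earlier results of these data known. The fit was repeated with median centring, on the deposited values, without each array in turn, without the dimmest 30% of genes, on the mean over probe sets and on single probe sets, with an intensity trend, with the replicate block and on the arrays of 1 cell type. The values of the lists and of their named genes with an array left out were added after seeing the data. The titles number the replicates, but nothing ties same-numbered preparations to each other, and the series' design text calls the preparations independent; each pools several animals.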

Additional observations from a re-analysis of the deposited data

Results flagged for a closer look

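Il7r on WT MEP 1 was far from the other 3 MEP arrays: the gap to the nearest of them was 0.966 of the whole range of the 4 arrays, above Dixon's critical value at the 95% level. Chance flags about 1 in 20 such groups, and 18 were looked at (the 8 antigens and Hmga2, in KLS and in MEP cells), of which this was the only one past the value. The 4 arrays are MEP cells of both genotypes, and Il7r was at 9.96 on WT MEP 1 and between 6.71 and 6.82 on the other 3.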

How the results depend on the processing

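With 1 array left out, the number of the 8 antigen genes called ran from 0 to 6 between KLS and MEP cells, from 0 to 2 in WT and from 0 to 6 in TG cells, from 0 to 2 by genotype in MEP cells and from 0 to 1 for the interaction. The genes called among all ran from 1 without TG MEP 1 to 738 without WT MEP 1 (319 on all arrays), 1 to 59 (1), 0 to 257 (27), 0 to 144 (0) and 0 to 10 (0) in the same order. Median centring and single probe sets called 123 and 179 genes between KLS and MEP cells, and 1 gene each in TG cells, where 0 antigens then passed. Single values changed sign with 1 array left out, with these ranges. Between KLS and MEP cells they were -0.59 to 0.98 for Il7r over both genotypes, -2.10 to 1.04 for Il7r and -0.28 to 0.88 for Slamf1 in WT, and -0.077 to 0.70 for Slamf1 in TG cells. By genotype in KLS cells they were -0.41 to 0.60 for Cd34, -0.066 to 0.31 for Cd48, -0.43 to 0.64 for Fcgr3, -0.22 to 0.080 for Flt3, -0.21 to 0.26 for Kit and -0.67 to 0.11 for Slamf1. By genotype in MEP cells they were -0.83 to 0.014 for Fcgr2b, -0.35 to 0.088 for Kit and -0.87 to 0.29 for Slamf1. For the interaction they were -0.13 to 3.01 for Il7r, -0.083 to 0.39 for Kit and -0.57 to 0.59 for Slamf1. As deposited and with median centring, Flt3 by genotype in KLS cells was at 0.028 and 0.059, and the Slamf1 interaction at -0.10 and -0.047. The cause of these changes was not tested.

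With the replicate number as a block, 562, 8 and 111 genes were called between KLS and MEP cells over both genotypes, in WT and in TG cells, and 5 antigens over both genotypes and 4 in TG cells. The samples share only a number. Deviations of same-numbered arrays correlated between groups at 0.38 for TG and WT KLS and at -0.21 for TG and WT MEP cells. Between KLS and MEP groups they correlated at 0.18 in WT, at -0.28 in TG, at 0.35 for TG KLS and WT MEP and at -0.17 for WT KLS and TG MEP cells.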
